A study of Mus musculus with 36 samples.

Results

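The cytochrome P450 family 2 genes of the mouse, named Cyp2 followed by a letter for the subfamily, were examined in liver and brain of 3 inbred strains with and without sleep deprivation. They were taken as every probe set of the array whose platform annotation gives 1 gene symbol of that form. This rule found 42 probe sets for 35 genes, among 45037 non-control probe sets and 18193 genes with a probe set of 1 symbol. A probe set annotated with both Cyp2a4 and Cyp2a5 was left out, because its signal cannot be assigned to either. Where a gene had several probe sets, the one brightest on average in the 18 liver arrays stands for it here. For Cyp2b10, Cyp2d13, Cyp2d22, Cyp2j5, Cyp2j6 and Cyp2u1, the remaining ones are also given. The 35 genes fell into 11 subfamilies, with 11 genes of Cyp2c, 8 of Cyp2d, 5 of Cyp2j, 4 of Cyp2b and 1 each of the other 7.

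Sleep-deprived males of DBA/2J, AKR/J and C57BL/6J were kept awake for 6 h from light onset, and were set against males of the same strains left in their home cages. All were 12 to 13 weeks old and were killed at Zeitgeber time (ZT) 6, that is 6 h after light onset, per the titles. Each array held RNA pooled from 3 mice, and each of the 12 groups (2 tissues, 3 strains, 2 conditions) had 3 arrays, so the errors below describe the spread between pools. The source names of AKR/J control arrays 2 and 3 in each tissue give ZT 0 and conflict with their titles. The Cyp2 calls of the liver control contrasts, the mean effect of sleep deprivation and liver minus brain are therefore given with and without them. Other results that use those arrays, among them the interaction, cell markers, regulators and other P450 genes, are given with them only.

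Arrays were closely alike within a tissue, with correlations of 0.980 to 0.996 in liver and 0.978 to 0.997 in brain, and no pair of arrays was identical. The tissue labels were checked against albumin (Alb) and 5 neuronal genes on the log2 scale. Alb lay between 14.58 and 14.71 on the 18 liver arrays and between 3.37 and 4.46 on the 18 brain arrays. Nefl lay between 2.70 and 3.17 in liver and 10.82 and 11.10 in brain, and Nefm between 2.48 and 3.02 in liver and 10.08 and 10.51 in brain. Of the other neuronal genes, Syt1 (6.08 to 7.39) and Rbfox3 (5.04 to 5.71) were above the median in liver too, and the probe set of Snap25 was dim in both tissues (2.51 to 2.76 in liver and 3.26 to 4.32 in brain). Beta-actin signal, used to gauge RNA quality, was lower at the 5′ than at the 3′ end by 2.16 log2 units on the first DBA/2J control array of liver and by 0.96 to 1.45 on the remaining 17 liver arrays. In bulk liver, fewer cells of a type and less RNA per cell cannot be told apart.

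Family 2 P450 enzymes are haem proteins of the endoplasmic reticulum that take electrons from P450 oxidoreductase and insert an oxygen atom into drugs, steroids, vitamins and fatty acids. In the rodent liver they make up much of the P450 pool of hepatocytes, many are more abundant around the central vein, and several respond to the nuclear receptors CAR and PXR or differ between the sexes under the control of growth hormone. In the mouse most Cyp2 genes lie in clusters of close copies that arose by duplication, so a probe set of one can also hybridise with its neighbours. Probe sequences were not used here, and neither hybridisation to copies nor strain variants under the probes was tested.

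Close copies are shown here by the 250 bases before the annotated start of 3 pairs of genes whose values are set side by side below. The sequences come from RefSeq (build GRCm38.p6, the C57BL/6J reference) and run 5′ to 3′ on the plus strand, the coding strand of all 6 genes. Capitals mark bases that differ from, or have no partner in, the other gene of the pair in a global alignment. For Cyp2c39, which has 2 listed starts, the first is shown; the other lies beyond the start of Cyp2c38. The windows lie at chr19:39992174-39992423 for Cyp2c37, chr19:40089429-40089678 for Cyp2c50, chr19:39347096-39347345 for Cyp2c39, chr19:39286835-39287084 for Cyp2c29, chr7:26173159-26173408 for Cyp2b9 and chr7:26061245-26061494 for Cyp2b13.
Cyp2c37: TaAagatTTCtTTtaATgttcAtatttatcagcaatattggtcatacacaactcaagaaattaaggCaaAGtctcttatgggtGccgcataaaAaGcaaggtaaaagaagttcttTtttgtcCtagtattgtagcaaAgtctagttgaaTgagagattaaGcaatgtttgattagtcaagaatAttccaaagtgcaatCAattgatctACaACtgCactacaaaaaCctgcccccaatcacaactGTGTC
Cyp2c50: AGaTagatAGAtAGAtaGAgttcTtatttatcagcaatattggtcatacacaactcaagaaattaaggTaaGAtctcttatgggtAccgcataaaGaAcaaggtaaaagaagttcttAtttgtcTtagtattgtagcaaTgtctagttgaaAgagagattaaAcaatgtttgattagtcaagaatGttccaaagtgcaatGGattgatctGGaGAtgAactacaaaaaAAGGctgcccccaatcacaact
Cyp2c39: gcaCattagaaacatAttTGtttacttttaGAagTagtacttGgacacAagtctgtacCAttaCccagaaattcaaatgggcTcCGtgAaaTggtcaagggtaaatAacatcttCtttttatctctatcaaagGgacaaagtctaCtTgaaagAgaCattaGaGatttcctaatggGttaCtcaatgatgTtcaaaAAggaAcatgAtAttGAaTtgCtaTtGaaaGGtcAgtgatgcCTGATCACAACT
Cyp2c29: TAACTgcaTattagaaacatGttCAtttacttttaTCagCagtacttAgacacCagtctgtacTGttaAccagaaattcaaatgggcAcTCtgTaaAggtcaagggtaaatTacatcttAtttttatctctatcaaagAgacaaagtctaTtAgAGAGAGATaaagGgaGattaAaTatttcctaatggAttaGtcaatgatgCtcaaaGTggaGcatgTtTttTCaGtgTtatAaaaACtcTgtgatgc
Cyp2b9: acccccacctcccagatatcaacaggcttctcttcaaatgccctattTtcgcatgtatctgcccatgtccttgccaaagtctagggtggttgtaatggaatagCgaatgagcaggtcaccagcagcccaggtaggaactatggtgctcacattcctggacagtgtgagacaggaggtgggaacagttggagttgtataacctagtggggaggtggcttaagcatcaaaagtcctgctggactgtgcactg
Cyp2b13: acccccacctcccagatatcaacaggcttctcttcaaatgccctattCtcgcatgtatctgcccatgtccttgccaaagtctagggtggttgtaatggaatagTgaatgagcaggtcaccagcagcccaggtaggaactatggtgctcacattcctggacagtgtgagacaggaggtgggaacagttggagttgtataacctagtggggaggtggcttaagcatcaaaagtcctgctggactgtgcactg
Counting gaps as differences, identity was 84.3% between Cyp2c37 and Cyp2c50, 74.1% between Cyp2c39 and Cyp2c29 (68.1% with the other listed start of Cyp2c39), and 99.2% between Cyp2b9 and Cyp2b13, whose windows differ at 2 bases. The AKR/J and DBA/2J sequences of these windows were not used here. Promoter windows were found for 27 of the 35 genes (29 windows, of 32851 in the table); Cyp2c23, Cyp2c54, Cyp2d12, Cyp2d13, Cyp2d22, Cyp2d34, Cyp2g1 and Cyp2u1 were not matched. Of 4 motifs searched on both strands, TATAAA (the core of a TATA box) was in 12 of the 29 Cyp2 windows (41.4%), among them Cyp2c29, and in 12.4% of all windows. The nuclear receptor half-site AGGTCA was in 8 (27.6%), among them Cyp2c29, Cyp2c39, Cyp2b9 and Cyp2b13, and in 14.0% of all. CAAAGTCCA, a site of the type bound by HNF4, was in the windows of Cyp2c65, Cyp2c68 and Cyp2c70 and in 0.38% of all, and TTATGTAA, a D-box, was in none of the 29 and in 0.82% of all. These matches are descriptions of the letters and show no binding, and no member of an aligned pair is set against the other by motif.

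In liver 28 of the 35 genes had a mean above the median of all liver values (4.1) and 13 had a mean above 10, whereas in brain 6 lay above the brain median of 4.77 (Cyp2a12, Cyp2d22, Cyp2j6, Cyp2j9, Cyp2s1 and Cyp2u1). The 7 below the liver median were Cyp2b9, Cyp2b13, Cyp2b19, Cyp2c65, Cyp2d34, Cyp2j11 and Cyp2j13, and changes of such dim probe sets are compressed. Values of different probe sets measure different affinities, and no gene's level is set against another's.

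The first comparison asked how the strains differ without sleep loss. Among controls, 12 of the 35 Cyp2 genes differed between AKR/J and C57BL/6J (7 higher and 5 lower in AKR/J), where 7.18% of all genes passed limma's test at an adjusted p under 0.05 (4.76% higher and 2.42% lower). Between DBA/2J and C57BL/6J 9 genes differed (5 higher and 4 lower in DBA/2J), against 7.97% of all genes (5.41% higher and 2.56% lower). Between DBA/2J and AKR/J 4 differed (2 in each direction), against 5.89% of all genes (3.46% higher and 2.43% lower). The median difference of the 35 genes was 0.04, 0.02 and -0.03 on the log2 scale in these contrasts, against 0.02, 0.02 and 0.00 over all genes, with called genes in both directions. In all, 13 genes passed in at least 1 of the 3 contrasts, a count for which the share of all genes was not computed. Of these, 8 were Cyp2c genes, and the others were Cyp2a12, Cyp2f2, Cyp2g1, Cyp2r1 and Cyp2u1. None of the 4 Cyp2b, 8 Cyp2d and 5 Cyp2j genes passed by its representative probe set.

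Cyp2c37, an enzyme of fatty acid oxidation, had by far the largest difference. It had values of 9.27, 9.38 and 9.08 on the 3 DBA/2J control arrays, 3.37, 3.79 and 3.19 on the AKR/J control arrays and 9.90, 10.35 and 10.27 on the C57BL/6J control arrays. AKR/J lay near the low end of the liver arrays, whose 25th percentile was 3.24, while the other strains lay well above the median. The difference was -6.72 ± 0.29 for AKR/J minus C57BL/6J (SE; adjusted p = 9.41e-12), a 106-fold lower value, and 5.79 ± 0.29 for DBA/2J minus AKR/J (adjusted p = 1.17e-10). For DBA/2J minus C57BL/6J it was -0.93 ± 0.29, which did not pass (adjusted p = 0.0757), although the control arrays of these strains did not overlap. It did not pass under 25 of 29 alternative settings. It passed on the arrays of the 2 groups only and without sleep-deprived AKR/J array 1 or 3. Averaged over conditions it also passed limma's test (-0.83 ± 0.21, adjusted p = 0.0115). No detection calls were used here, so it is not known whether AKR/J livers held any of this transcript above background, and the folds against AKR/J depend on values near the floor. Among sleep-deprived mice the AKR/J arrays read 5.07, 3.98 and 3.15, again below every array of the other strains, at 9.64, 9.67 and 9.39 in DBA/2J and 10.22, 10.45 and 10.19 in C57BL/6J.

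Cyp2c50 and Cyp2c54 lie next to Cyp2c37 in the reference gene order (Cyp2c37, Cyp2c54, Cyp2c50, Cyp2c70) and were lower in both other strains than in C57BL/6J, with far smaller differences in AKR/J. Cyp2c50, which like Cyp2c37 oxidises arachidonic and linoleic acid, read 11.55, 11.63 and 11.55 in DBA/2J mice, 11.53, 11.69 and 11.39 in AKR/J mice and 12.44, 12.60 and 12.55 in C57BL/6J controls. Both strains lay below every C57BL/6J array, with differences of -0.99 ± 0.09 in AKR/J (adjusted p = 6.61e-07) and -0.95 ± 0.09 in DBA/2J (adjusted p = 1e-06). Cyp2c54, of the same function, read 10.74, 10.54 and 10.45 in DBA/2J mice, 10.70, 10.65 and 10.66 in AKR/J mice and 11.38, 11.65 and 11.47 in C57BL/6J controls. Its differences from C57BL/6J were -0.83 ± 0.15 in AKR/J (adjusted p = 0.00137) and -0.93 ± 0.15 in DBA/2J (adjusted p = 0.000439). For Cyp2c70, the enzyme that forms muricholic acids in the mouse and the last gene of this cluster, the control values were 12.90, 12.88 and 12.92 in DBA/2J mice, 13.06, 13.05 and 13.08 in AKR/J mice and 12.87, 12.53 and 12.50 in C57BL/6J. AKR/J lay above all C57BL/6J arrays by 0.43 ± 0.11 (adjusted p = 0.0252), while DBA/2J at 0.27 ± 0.11 did not pass.

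Cyp2c39, known to hydroxylate retinoic acid, differed between all 3 strains. Its control values were 7.07, 7.75 and 7.00 in DBA/2J mice, 9.44, 9.18 and 9.30 in AKR/J mice and 5.83, 5.76 and 5.66 in C57BL/6J, with no overlap. It was 3.55 ± 0.19 higher in AKR/J (11.8-fold; adjusted p = 1.82e-10) and 1.52 ± 0.19 higher in DBA/2J (2.87-fold; adjusted p = 2.65e-05) than in C57BL/6J, and the difference was -2.03 ± 0.19 for DBA/2J minus AKR/J. Cyp2c29, its neighbour and one of the abundant hepatic P450 genes, differed by far less. It read 12.99, 13.23 and 13.28 in DBA/2J mice, 13.13, 13.23 and 13.25 in AKR/J mice and 12.58, 12.53 and 12.63 in C57BL/6J controls. Both strains lay above C57BL/6J, by 0.63 ± 0.10 in AKR/J (adjusted p = 0.000417) and 0.59 ± 0.10 in DBA/2J (adjusted p = 0.000722).

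Cyp2c23, listed in RefSeq also as Cyp2c44 and known as an arachidonic acid epoxygenase, lies apart from the other Cyp2c genes, with 101 other genes between it and the nearest of them. It was low in DBA/2J, at 8.44, 8.89 and 8.90, against 11.25, 11.24 and 11.49 in AKR/J and 11.19, 11.70 and 11.55 in C57BL/6J controls. The difference was -2.73 ± 0.13 from C57BL/6J (6.65-fold lower; adjusted p = 5.67e-11) and -2.58 ± 0.13 from AKR/J (5.98-fold lower; adjusted p = 1.49e-10). Cyp2c55, at the opposite end of the cluster from Cyp2c70 and also known from the intestine, was low in AKR/J. It read 6.52, 6.43 and 7.03 in DBA/2J mice, 4.96, 4.17 and 5.06 in AKR/J mice and 6.15, 6.41 and 5.91 in C57BL/6J controls. The difference was -1.43 ± 0.23 for AKR/J minus C57BL/6J (adjusted p = 0.000699), and DBA/2J lay 1.93 ± 0.23 above AKR/J (adjusted p = 2.22e-05). Cyp2c38, Cyp2c65 and Cyp2c68 passed in none of the contrasts.

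**Figure D1:**
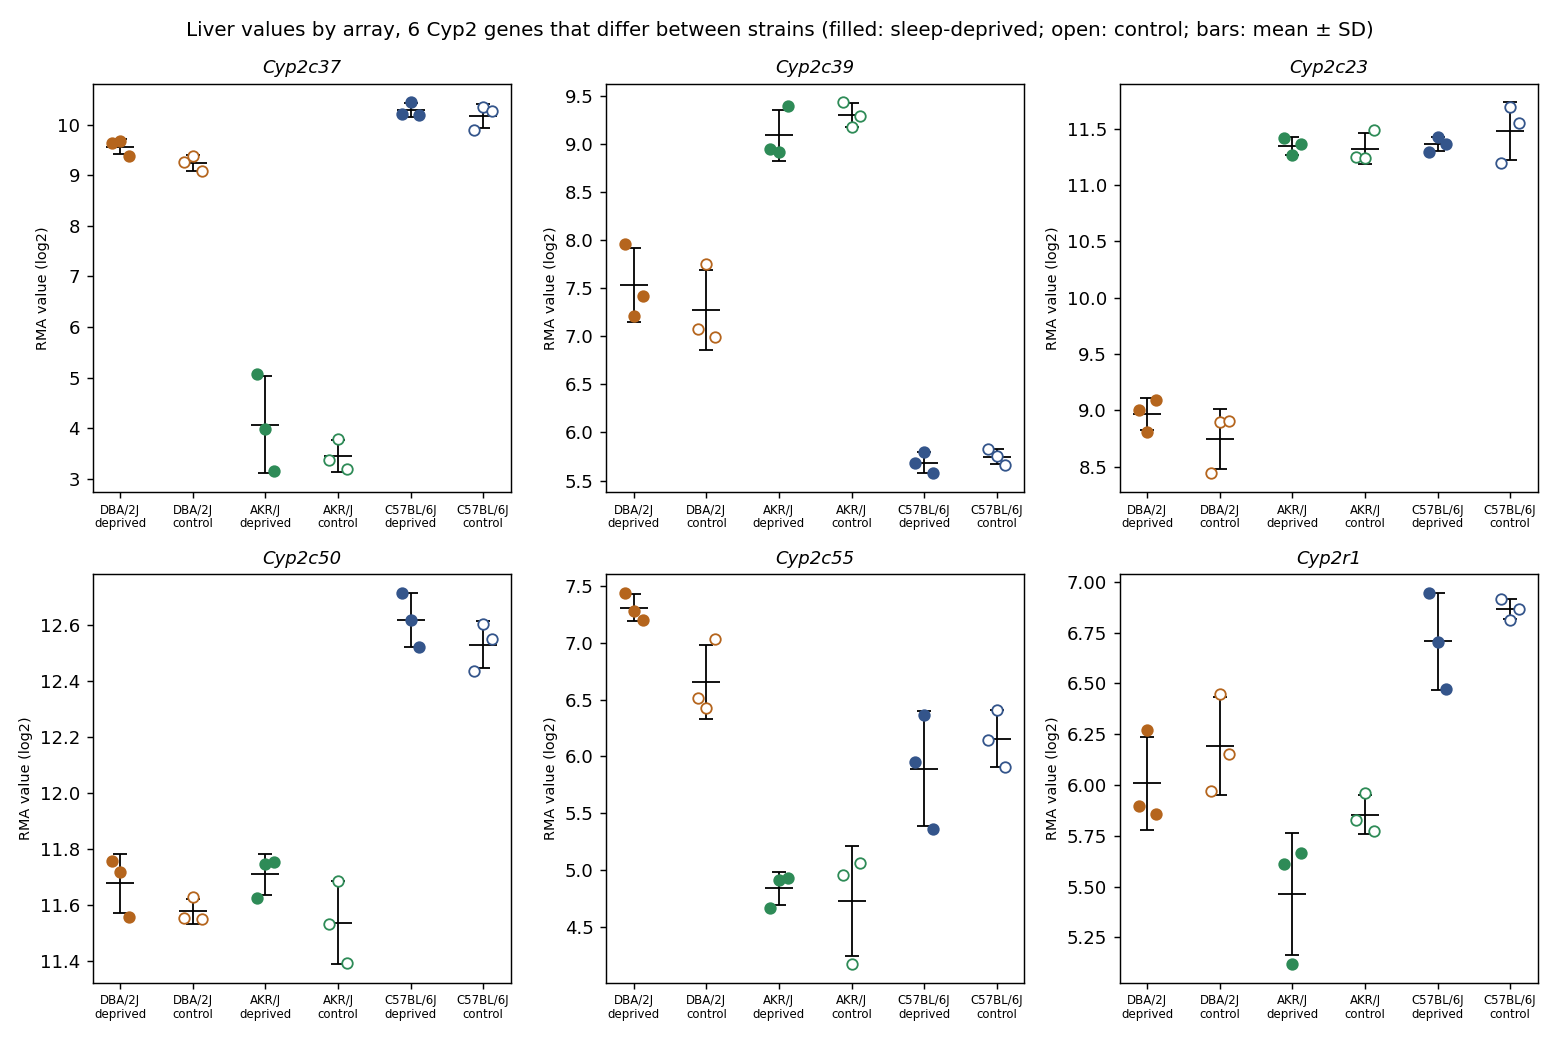
RMA values (log2, vertical axes) of 6 Cyp2 genes on the 18 liver arrays, by strain and condition (horizontal axes); points are arrays, horizontal lines are group means and whiskers are SDs (n = 3 arrays). Cyp2c37 is near the low end in AKR/J alone, Cyp2c23 is low in DBA/2J alone, and Cyp2c39 forms 3 separate levels.

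**Figure D2:**
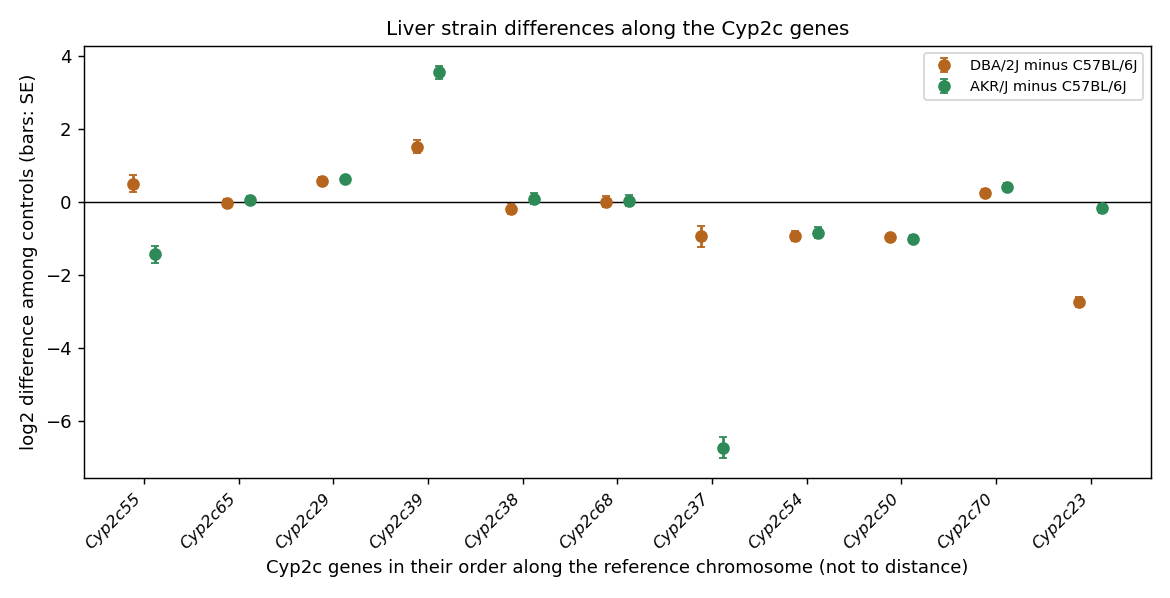
Differences among liver controls (log2, vertical axis) of DBA/2J and AKR/J from C57BL/6J for the 11 measured Cyp2c genes in their order along the reference chromosome (horizontal axis, not to distance); points are limma estimates and bars are SEs. Sign and size vary along the order, from 3.55 for Cyp2c39 to -6.72 for Cyp2c37 in AKR/J, which are not neighbours. In AKR/J the adjoining Cyp2c37, Cyp2c54 and Cyp2c50 are all lower than in C57BL/6J. Cyp2c29 and Cyp2c39 are both higher there.

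Of the 5 called genes outside the Cyp2c subfamily, Cyp2g1, known best from the olfactory mucosa, read 6.74, 7.19 and 6.49 in DBA/2J mice, 6.31, 6.18 and 6.18 in AKR/J mice and 4.82, 5.34 and 5.62 in C57BL/6J controls. It was 1.55 ± 0.24 higher in DBA/2J (adjusted p = 0.000362) and 0.97 ± 0.24 higher in AKR/J (adjusted p = 0.0226), and no array of either strain overlapped C57BL/6J. The AKR/J calls of Cyp2g1 and of Cyp2c70 were each lost under 6 of 29 alternative settings. Cyp2r1, a vitamin D 25-hydroxylase, had values of 5.97, 6.45 and 6.15 in DBA/2J mice, 5.83, 5.96 and 5.78 in AKR/J mice and 6.92, 6.81 and 6.87 in C57BL/6J controls. It was lower in both strains than in C57BL/6J, with differences of -1.01 ± 0.15 in AKR/J (adjusted p = 0.000316) and -0.67 ± 0.15 in DBA/2J (adjusted p = 0.0109), again without overlap. Without DBA/2J control array 1, the array of raised actin difference, the DBA/2J difference was -0.56 and no longer passed (adjusted p = 0.0652).

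Cyp2a12, known to hydroxylate testosterone, read 12.37, 12.34 and 12.41 in DBA/2J mice, 12.38, 12.45 and 12.50 in AKR/J mice and 11.75, 12.02 and 11.89 in C57BL/6J controls. It was 0.56 ± 0.08 higher in AKR/J (adjusted p = 0.000163) and 0.49 ± 0.08 higher in DBA/2J (adjusted p = 0.00059). Cyp2f2, which oxidises naphthalene and is a periportal gene of the liver, read 13.55, 13.53 and 13.69 in DBA/2J mice, 13.57, 13.61 and 13.68 in AKR/J mice and 13.21, 13.44 and 13.20 in C57BL/6J controls. It was 0.34 ± 0.09 higher in AKR/J (adjusted p = 0.0257) and 0.31 ± 0.09 higher in DBA/2J (adjusted p = 0.0424), and of 29 alternative settings 15 lost the DBA/2J call and 6 the AKR/J call. Cyp2u1, a hydroxylase of long-chain fatty acids, was 0.89 ± 0.14 higher in AKR/J than in C57BL/6J controls (adjusted p = 0.000445). Its second probe set gave 0.41 ± 0.19 there, which did not pass, but 0.86 ± 0.19 for DBA/2J minus C57BL/6J, which did (adjusted p = 0.00734), so its probe sets disagree on which strain stands higher. The second probe sets of Cyp2d22 (-0.38 ± 0.10 for AKR/J minus C57BL/6J, adjusted p = 0.0252) and Cyp2j6 (0.48 ± 0.13 for DBA/2J minus C57BL/6J, adjusted p = 0.0286, and 0.50 ± 0.13 for DBA/2J minus AKR/J) also passed where the representative ones did not.

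The strain differences were then computed in the sleep-deprived mice, whose arrays the control contrasts do not use, although both came from the same fit and share its estimate of the spread. There 12 Cyp2 genes differed between AKR/J and C57BL/6J (8.79% of all genes did), 14 between DBA/2J and C57BL/6J (8.4%) and 6 between DBA/2J and AKR/J (6.72%). For AKR/J minus C57BL/6J 10 genes passed in both sets in the same direction, 83.3% of the calls in each. For DBA/2J minus C57BL/6J all 9 control calls recurred, which are 64.3% of the 14 sleep-deprived calls, and for DBA/2J minus AKR/J all 4 recurred, 66.7% of 6. No Cyp2 gene passed in opposite directions. Recurrence over all genes was not computed, so these shares are not read as particular to the Cyp2 genes. After sleep deprivation the AKR/J minus C57BL/6J difference was -6.22 ± 0.29 for Cyp2c37 and 3.40 ± 0.19 for Cyp2c39, and the DBA/2J minus C57BL/6J difference of Cyp2c23 was -2.40 ± 0.13.

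**Figure D3:**
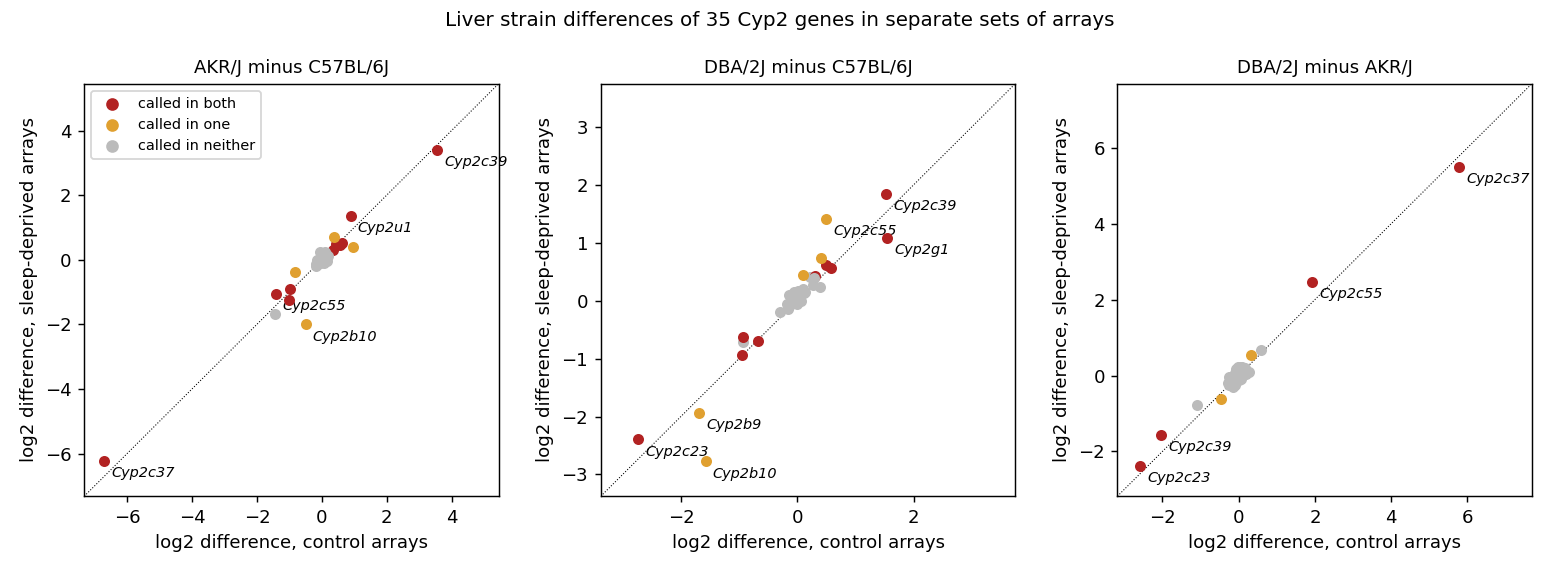
Liver strain differences (log2) of the 35 Cyp2 genes in sleep-deprived arrays (vertical axes) against those in control arrays (horizontal axes), 1 panel per pair of strains; points are genes, coloured by whether they passed limma's test in both sets, in 1 or in neither, and the dotted line marks equal differences. Genes that passed in both sets have the same sign in both, with Cyp2c37 at -6.72 and -6.22 in AKR/J minus C57BL/6J.

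Calls in the sleep-deprived arrays alone were Cyp2b10 and Cyp2d13 for AKR/J minus C57BL/6J, Cyp2b9, Cyp2b10, Cyp2c55, Cyp2d9 and Cyp2u1 for DBA/2J minus C57BL/6J, and Cyp2r1 and Cyp2u1 for DBA/2J minus AKR/J. Cyp2c54 and Cyp2g1 passed for AKR/J minus C57BL/6J in the controls alone. A call in 1 set and not in the other does not show that the sets differ. That difference was tested by the strain by sleep deprivation interaction, which called none of the 35 genes by limma's F test (smallest adjusted p = 0.716, and 1 gene, Cyp2c55, at an unadjusted p under 0.05, where 7.34% of all genes lay) and 0.033% of all genes. In all, 17 of the 35 genes passed in at least 1 of the 6 strain contrasts and 18 in none. The share of all genes that passed in at least 1 of the 6 was not computed.

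Cyp2e1 and Cyp2d10 passed in none of the contrasts and Cyp2d9 in 1. Cyp2e1, which oxidises ethanol and acetaminophen, read 13.92 to 14.02 on DBA/2J, 13.96 to 14.06 on AKR/J and 14.05 to 14.15 on C57BL/6J control arrays, differences of -0.13 to -0.04 between strains. Cyp2d10 read 12.60, 12.72 and 12.76 in DBA/2J mice, 12.60, 12.83 and 12.69 in AKR/J mice and 12.61, 12.86 and 12.81 in C57BL/6J controls, and the strains overlapped. Cyp2d9, a testosterone hydroxylase that is higher in males, read 12.75, 12.72 and 13.00 in DBA/2J mice, 12.69, 12.80 and 12.74 in AKR/J mice and 12.54, 12.84 and 12.76 in C57BL/6J controls. It was 0.45 ± 0.09 higher in DBA/2J than in C57BL/6J after sleep deprivation (adjusted p = 0.00498), where its values were 12.87, 12.90 and 12.98 in DBA/2J and 12.48, 12.54 and 12.39 in C57BL/6J.

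Cyp2b9 and Cyp2b13, which are higher in female than in male mouse liver, have the near-identical promoter windows shown above. Cyp2b9 in C57BL/6J read 6.00, 4.06 and 5.47 in sleep-deprived pools and 3.39, 4.41 and 6.60 in control pools; the spread within C57BL/6J controls (SD 1.64) was wide. In DBA/2J it read 3.16, 3.27 and 3.28 in sleep-deprived and 3.13, 3.03 and 3.17 in control pools, and in AKR/J 3.56, 3.51 and 3.40 in sleep-deprived and 3.47, 3.35 and 3.25 in control pools. Only C57BL/6J pools thus rose above the low end, and not all of them. The difference was -1.94 ± 0.52 for DBA/2J minus C57BL/6J after sleep deprivation (adjusted p = 0.0311) and -1.69 ± 0.52 among controls (adjusted p = 0.0691). Cyp2b13 stayed between 3.29 and 3.88 on all 18 liver arrays and passed in no contrast.

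Leaving out the AKR/J controls whose labels conflict, which leaves 1 control array in that strain whose spread is taken from the other groups, 5 rather than 12 Cyp2 genes passed for AKR/J minus C57BL/6J. These were Cyp2c37 (-6.81, adjusted p = 3.79e-08), Cyp2c39 (3.69), Cyp2c50, Cyp2r1 (-1.04) and Cyp2a12 (0.50, adjusted p = 0.0373). The other 7 kept their direction. The share of all genes that passed in this fit is not given, so the smaller count is not read as particular to the Cyp2 genes. All 4 calls of DBA/2J minus AKR/J held there, and the sleep-deprived contrast of AKR/J and C57BL/6J, which uses none of these arrays, called 11 genes in that fit.

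Markers of liver zones and cells also differed between the strains. Of 8 pericentral hepatocyte markers, 3 were lower in DBA/2J than in C57BL/6J controls (Glul, Oat and Slc1a2), and in AKR/J 2 were lower (Oat and Slc1a2) and 1 was higher (Rhbg). The summed linear value of the 8 was 11564 to 12607 on the 6 DBA/2J arrays and 10794 to 12796 on the 6 AKR/J arrays, against 14026 to 16217 on the 6 C57BL/6J arrays, with no overlap. Of 6 measured periportal markers, a list that includes Cyp2f2, AKR/J had Ass1 and Pck1 lower and Cyp2f2 higher, and DBA/2J had Cyp2f2 higher. Of the 8 general hepatocyte markers none passed in any control contrast; their sum was 111457 to 117810 in DBA/2J, 113494 to 119040 in AKR/J and 118921 to 130064 in C57BL/6J. Of 6 Kupffer cell markers, Adgre1 was lower in AKR/J than in C57BL/6J and 3 were higher in DBA/2J than in AKR/J, with sums of 1249 to 2898 in DBA/2J, 874 to 1461 in AKR/J and 1500 to 2001 in C57BL/6J. Lyve1 of the liver endothelium and Lrat of stellate cells were lower in DBA/2J and in AKR/J than in C57BL/6J. Of 6 pancreas markers Cela1, which was bright in liver, was higher in DBA/2J and in AKR/J than in C57BL/6J, and the sums of the 6 were 1217 to 1411 in DBA/2J, 939 to 1272 in AKR/J and 406 to 582 in C57BL/6J, without overlap between C57BL/6J and the others; the other 5 lay between 3.32 and 5.19 on every liver array. The sums of 5 lymphocyte markers, of which Ptprc was lower in AKR/J than in both other strains, were 157 to 225 in DBA/2J, 123 to 147 in AKR/J and 158 to 173 in C57BL/6J. Those of 2 red blood cell markers, of which Alas2 was higher in DBA/2J than in both other strains, were 815 to 1026 in DBA/2J, 591 to 756 in AKR/J and 462 to 597 in C57BL/6J. The red blood cell sums are almost all Alas2, since Hba-a1 lay between 3.04 and 3.46 on every liver array. Of 5 neuronal markers Syt1 was higher in DBA/2J and AKR/J than in C57BL/6J. The part of zonation and cell composition in the Cyp2 differences was not tested.

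The second comparison asked how 6 h of sleep deprivation changed the Cyp2 genes in liver. Averaged over strains, 5 of the 35 passed (3 higher and 2 lower), where 4.88% of all genes did (2.97% higher and 1.91% lower). Cyp2u1 and Cyp2j9 fell, and Cyp2d13, Cyp2b10 and Cyp2d22 rose. The median change of the 35 was 0.04, against -0.02 over all genes, and 23 of the 35 estimates were positive. None of the 11 Cyp2c genes passed, with changes between -0.05 and 0.35.

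Cyp2u1 had the clearest response. It read 6.78, 7.06 and 6.96 in sleep-deprived DBA/2J mice against 7.84, 7.30 and 7.61 in DBA/2J controls, and 7.53, 7.38 and 7.74 in sleep-deprived AKR/J mice against 7.97, 8.15 and 8.07 in AKR/J controls. In C57BL/6J it read 5.98, 6.44 and 6.16 after sleep deprivation against 7.27, 7.25 and 7.00 in controls. On this representative probe set every sleep-deprived array lay below every control array of its strain. The mean change was -0.71 ± 0.08 (1.64-fold lower; adjusted p = 2.88e-05), and it was -0.98 ± 0.14 in C57BL/6J (adjusted p = 0.00114), -0.51 ± 0.14 in AKR/J (adjusted p = 0.126) and -0.66 ± 0.14 in DBA/2J (adjusted p = 0.0384). The second probe set fell by 0.47 ± 0.11 (adjusted p = 0.0178), with separate groups in DBA/2J and overlap in AKR/J and C57BL/6J. The call in DBA/2J alone was lost under 11 of 28 alternatives, among them leaving out control array 1 (-0.53, adjusted p = 0.185).

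Cyp2j9, an arachidonic acid epoxygenase known from the brain, was dim in liver. Its values were 4.53, 4.54 and 4.51 in sleep-deprived DBA/2J mice against 4.96, 4.79 and 4.88 in controls, and 4.76, 4.50 and 4.64 in sleep-deprived AKR/J mice against 4.86, 4.91 and 4.86 in controls. In C57BL/6J they were 4.20, 4.54 and 4.43 after sleep deprivation against 4.92, 4.66 and 4.72 in controls. The groups did not overlap in any strain, and the mean change was -0.32 ± 0.06 (adjusted p = 0.00222). No single strain passed, with changes of -0.24 to -0.38. The other 4 Cyp2j genes did not pass, among them Cyp2j5, an abundant hepatic epoxygenase (0.11 on its representative probe set, and 0.26 ± 0.07 with adjusted p = 0.0679 on the other).

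Cyp2d13, which RefSeq lists as a transcribed pseudogene, rose by 0.40 ± 0.08 (adjusted p = 0.00523), and its second probe set by 0.22 ± 0.06 (adjusted p = 0.0452). It read 9.10, 8.78 and 9.05 in sleep-deprived DBA/2J mice against 8.35, 8.69 and 8.66 in controls, 9.13, 9.41 and 9.31 in sleep-deprived AKR/J mice against 8.94, 8.71 and 8.50 in controls, and 8.53, 8.63 and 8.58 in sleep-deprived C57BL/6J mice against 8.11, 8.60 and 8.32 in controls. On the representative probe set the groups separated in DBA/2J and AKR/J and overlapped in C57BL/6J. On the second they separated in DBA/2J and C57BL/6J and overlapped in AKR/J. Cyp2d22 rose by 0.22 ± 0.06 (adjusted p = 0.048). Its sleep-deprived and control values were 9.84, 9.74 and 9.91 against 9.32, 9.46 and 9.64 in DBA/2J, 9.73, 9.68 and 9.43 against 9.36, 9.48 and 9.47 in AKR/J, and 9.81, 9.68 and 9.72 against 9.57, 9.77 and 9.49 in C57BL/6J. Only in DBA/2J were the groups separate, the second probe set gave 0.15 ± 0.06 (adjusted p = 0.165), and the call was lost under 18 of 27 alternatives.

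Cyp2b10, the main target of CAR and the classical phenobarbital-induced P450 gene of mouse liver, had the largest change of the 35 and varied between pools. In C57BL/6J it read 7.93, 8.28 and 8.67 after sleep deprivation and 7.83, 5.64 and 5.70 in controls, so control array 1 stood well above the other controls and just below the sleep-deprived arrays. In AKR/J it read 6.80, 6.91 and 5.18 after sleep deprivation and 5.85, 5.71 and 6.12 in controls, which overlap, and in DBA/2J 6.02, 5.26 and 5.29 against 4.66, 5.05 and 4.73, which do not. The mean rise was 1.00 ± 0.27 (2.01-fold; adjusted p = 0.0422), and the call was lost under 18 of 27 alternatives, with changes of 0.84 to 1.24 and adjusted p-values of up to 0.135. Its other probe sets rose by 0.93 ± 0.23 (adjusted p = 0.0263) and changed by 0.57 ± 0.22 (adjusted p = 0.191). On both of these the groups overlapped in DBA/2J and AKR/J, and on the latter in C57BL/6J too. The mean rise of Cyp2b10 thus did not pass on all 3 probe sets, and their hybridisation to close copies was not tested. In C57BL/6J alone the change was 1.91 ± 0.46 (adjusted p = 0.0803), which passed without control array 1, while a second probe set passed there on all arrays (1.97 ± 0.40, adjusted p = 0.0225). After sleep deprivation Cyp2b10 differed from C57BL/6J by -2.78 ± 0.46 in DBA/2J and -2.00 ± 0.46 in AKR/J, and both differences passed on all 3 probe sets.

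**Figure D4:**
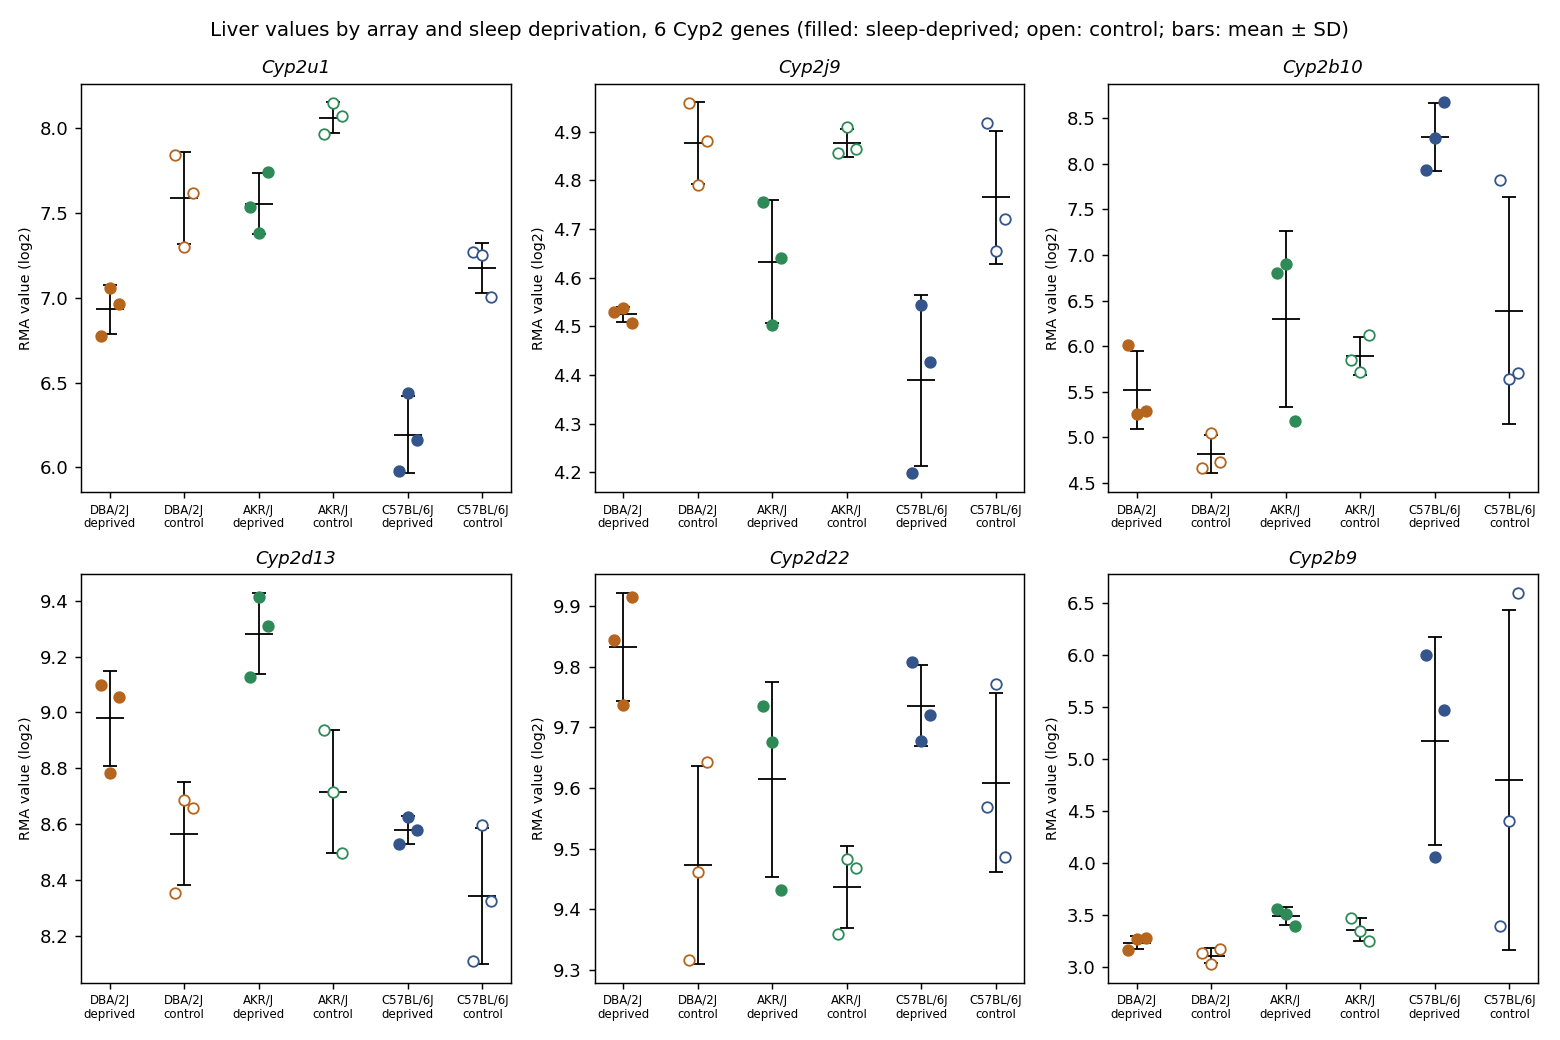
RMA values (log2, vertical axes) of the 5 Cyp2 genes that changed with sleep deprivation and of Cyp2b9 on the 18 liver arrays, by strain and condition (horizontal axes); points are arrays, horizontal lines are group means and whiskers are SDs (n = 3 arrays). On the representative probe sets shown, Cyp2u1 and Cyp2j9 are lower in all 3 strains without overlap, while Cyp2b10 and Cyp2b9 vary widely between pools of C57BL/6J.

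**Figure D5:**
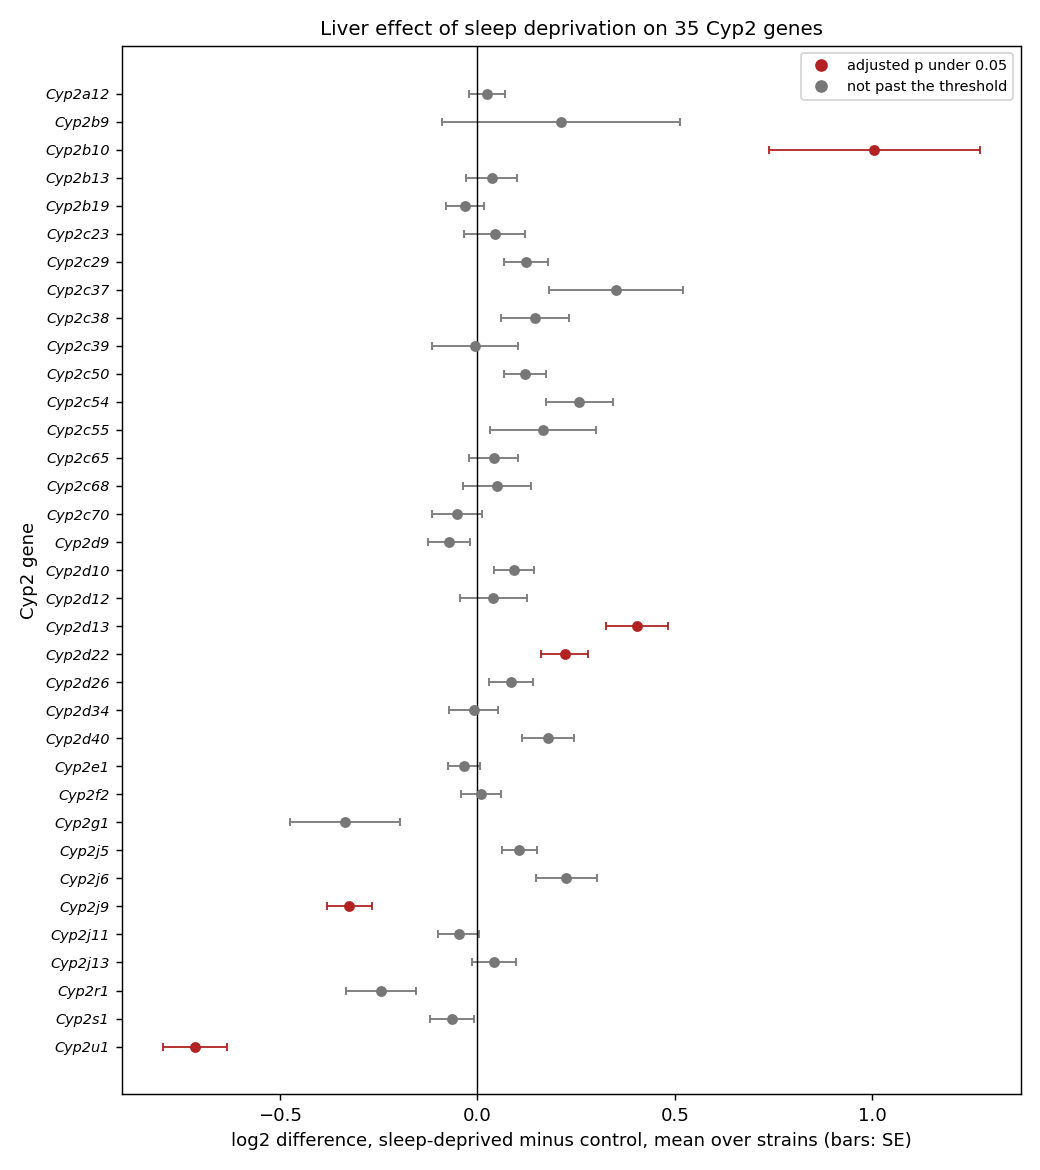
Change with sleep deprivation in liver averaged over strains (log2, horizontal axis) for the 35 Cyp2 genes (vertical axis); points are limma estimates, bars are SEs, and red marks an adjusted p under 0.05. Cyp2u1 at -0.71 and Cyp2b10 at 1.00 stand furthest out.

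Within single strains, limma called 1 of the 35 genes in C57BL/6J (Cyp2u1; 0.803% of all genes passed), 0 in AKR/J (1.03%) and 1 in DBA/2J (Cyp2u1; 0.846%). In AKR/J 7 of the 35 had an unadjusted p under 0.05, where 11.4% of all genes did. None of 6 further genes passed; their mean changes were -0.03 ± 0.04 for Cyp2e1, 0.01 ± 0.05 for Cyp2f2, 0.12 ± 0.06 for Cyp2c29, -0.05 ± 0.06 for Cyp2c70, 0.09 ± 0.05 for Cyp2d10 and -0.07 ± 0.05 for Cyp2d9. Sleep-deprived values of Cyp2e1 were 13.98 to 14.01 in DBA/2J, 13.94 to 13.99 in AKR/J and 14.04 to 14.08 in C57BL/6J. Sleep-deprived values of Cyp2f2 were 13.62 to 13.79, 13.47 to 13.63 and 13.23 to 13.29, and of Cyp2c29 13.25 to 13.34, 13.23 to 13.31 and 12.53 to 12.92 in these strains. These ranges lay within or beside the control values given above. Cyp2r1 changed by -0.24 ± 0.09 (adjusted p = 0.163) and Cyp2g1 by -0.33 ± 0.14 (adjusted p = 0.239), in both cases with sleep-deprived AKR/J arrays all below their controls.

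With the AKR/J controls of doubtful time left out, 2 rather than 5 Cyp2 genes passed in the mean over strains, Cyp2u1 (-0.68, adjusted p = 0.00104) and Cyp2j9 (-0.32, adjusted p = 0.0217). There Cyp2d13 (0.33), Cyp2b10 (1.02) and Cyp2d22 (0.25) did not pass and kept their direction. The share of all genes that passed in that fit is not given, so the smaller count is not read as particular to the Cyp2 genes. Cyp2u1 and Cyp2j9 passed under every one of the alternatives. Markers of the liver endothelium moved with sleep deprivation too. Of 6, 3 were higher (Lyve1 by 0.99 ± 0.12, Clec4g by 0.34 ± 0.08 and Pecam1 by 0.42 ± 0.09), and the sum of the 6 was 1172 to 1524 on the 9 sleep-deprived and 876 to 1319 on the 9 control arrays. Of the hepatocyte markers Tat rose, and of the periportal ones Ass1 and Pck1 rose and Hal fell, while no pericentral marker passed. Syt1 of the neuronal and Cd79a of the lymphocyte markers fell, with neuronal sums of 133 to 158 on sleep-deprived and 156 to 231 on control arrays. These sums rest mostly on Syt1 (liver mean 6.62), since Snap25, Nefl and Nefm had liver means of 2.63, 2.91 and 2.71. The part of these markers in the Cyp2 changes was not tested.

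The genes that serve and control P450 enzymes were counted from lists. Of 9 partners and haem supply genes 8 were measured by a probe set of 1 symbol, and none passed with sleep deprivation, among them Cyb5a, the electron donor cytochrome b5 (0.00 ± 0.04), and Alas1, the first enzyme of haem synthesis (0.11). In controls the AKR/J minus C57BL/6J difference was -1.46 ± 0.30 for Alas1 (adjusted p = 0.00509) and 0.30 ± 0.07 for Fech, the last enzyme of haem synthesis, and the DBA/2J minus C57BL/6J difference of Cyb5b was -0.38 ± 0.09. After sleep deprivation the same contrasts called 1 gene each, Alas1 at -1.32 ± 0.30 and Cyb5b at -0.39 ± 0.09, and DBA/2J minus AKR/J none. Of 28 regulators 26 were measured, of which 3 rose and none fell with sleep deprivation, with a median of -0.01. These were Nr1i2, which encodes PXR (0.56 ± 0.09, adjusted p = 0.00161), Nr0b2, which encodes the repressor SHP (0.56 ± 0.13, adjusted p = 0.0141), and Hnf4a, a master regulator of hepatocyte genes (0.23 ± 0.06, adjusted p = 0.0362). Nr1i3, which encodes CAR, changed by -0.09 (adjusted p = 0.612). Among controls 1 regulator differed between AKR/J and C57BL/6J, the D-box factor Hlf (0.49 ± 0.14 higher in AKR/J), and none differed in the other pairs. After sleep deprivation 4 passed in AKR/J minus C57BL/6J: Ahr, the dioxin receptor, at -0.93 ± 0.17, Nr1i2 at -0.56 ± 0.16, Stat5a, which acts downstream of growth hormone, at 0.36 ± 0.10 and the repressor Bcl6 at 1.53 ± 0.44. In DBA/2J minus C57BL/6J 5 passed: Ahr at -0.82 ± 0.17, the fatty acid receptor Ppara at 0.84 ± 0.18, the glucocorticoid receptor Nr3c1 at 0.45 ± 0.11 and the D-box factors Dbp at 0.93 ± 0.19 and Hlf at 0.47 ± 0.14. Ppara (0.83 ± 0.18) and the clock receptor Rora (0.48 ± 0.11) passed in DBA/2J minus AKR/J. A difference between the conditions was not read from these calls.

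Of the 21 measured P450 genes of families 1, 3 and 4, 2 rose with sleep deprivation and none fell: Cyp4b1 (0.36 ± 0.08, adjusted p = 0.0177) and Cyp4f15 (0.22 ± 0.05, adjusted p = 0.0124). Among controls 4 of the 21 differed between AKR/J and C57BL/6J (1 higher, 3 lower), 6 between DBA/2J and C57BL/6J (2 higher, 4 lower) and 1 between DBA/2J and AKR/J. After sleep deprivation the counts for these pairs were 4 (1 higher, 3 lower), 5 (3 higher, 2 lower) and 3 (2 higher, 1 lower). The largest among controls were the fatty acid hydroxylase Cyp4a14, with AKR/J minus C57BL/6J at -4.67 ± 0.83 and DBA/2J minus C57BL/6J at -3.75 ± 0.83, and Cyp3a13, with differences of -2.39 ± 0.16 for DBA/2J minus C57BL/6J and -2.30 ± 0.16 for DBA/2J minus AKR/J.

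In brain no Cyp2 gene passed for sleep deprivation averaged over strains (2.38% of all genes did; at an unadjusted p under 0.05 there were 4 of 35, and 14.5% of all genes), with changes of the representative probe sets between -0.14 and 0.17. None passed among controls either, for AKR/J minus C57BL/6J (1.98% of all genes), DBA/2J minus C57BL/6J (1.81%) or DBA/2J minus AKR/J (1.58%), where 2, 2 and 5 of the 35 and 10.9%, 8.22% and 7.49% of all genes had an unadjusted p under 0.05. Most of these genes lay below the brain median. Cyp2j9 and Cyp2u1, which both lay above the brain median (means of 7.03 and 5.49), changed by 0.00 ± 0.12 and 0.02 ± 0.08. A fit over both tissues called 4 of the 35 genes as changing differently with sleep deprivation in liver and brain (1.92% of all genes, 1.38% positive and 0.539% negative): Cyp2u1 (-0.74 ± 0.11 for liver minus brain, adjusted p = 0.000257), Cyp2d13 (0.42 ± 0.11, adjusted p = 0.0341), Cyp2d22 (0.35 ± 0.08, adjusted p = 0.0235) and Cyp2j6 (0.37 ± 0.09, adjusted p = 0.0354). With the 2 AKR/J controls of doubtful time left out of each tissue, Cyp2u1 alone passed.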

How the data were processed

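RNA from whole brain and liver of male mice was measured on 36 Affymetrix arrays, each with pooled RNA of 3 mice. The deposited values are on the log2 scale and were made by the authors with RMA (background subtraction, normalisation across arrays and summary of probes), per the submitters' processing notes; its version and the probe mapping are not given in the sources used here. All 36 columns were matched to samples by title, and 0 columns were left unmapped. Of 45101 probe sets, 64 controls were left out, 34945 had 1 gene symbol in the platform annotation, 932 had several and 9160 none. Groups came from the labels.

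Each tissue was modelled with limma 3.58.1 (R 4.3.3), taking 6 group means without covariates from its 18 arrays, and a further fit over 36 arrays compared the tissues. That fit took the 36 arrays as independent. The labels used here do not say whether brain and liver pools came from the same mice, and such pairing was not modelled. P-values are two-sided and Benjamini-Hochberg adjusted over 45037 probe sets, with a threshold of 0.05. Differences are given with SEs. Array number limits the precision, since arrays have no read depth. The fits were also run on simulated data made of independent normal noise with added shifts. That simulation held no array effects or unequal spread between groups, and no conclusion is drawn from it here.

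Values by array were given for the 6 members of highest liver mean, members past the threshold for sleep deprivation or the interaction, the 4 largest strain differences in each direction among controls, and Cyp2b10, Cyp2b9, Cyp2b13, Cyp2e1, Cyp2d9, Cyp2c29 and Cyp2r1; Cyp2a4 and Cyp2a5, named with them, have no probe set of their own. The choice of any further gene was made with its values in view. The members, lists and tests were chosen with earlier results of these data known. Motifs were counted in the RefSeq promoter table. Alternatives were quantile normalisation within tissue, median centring, array weights, trended and robust variances, a filter at the median level, the mean of a gene's probe sets, fits of fewer arrays, a replicate block, averaging over conditions and leaving out arrays.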

Additional observations from a re-analysis of the deposited data

Results flagged for a closer look

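The change with sleep deprivation differed between liver and brain for 4 Cyp2 genes, by the fit over both tissues: Cyp2u1 by -0.74, Cyp2d13 by 0.42, Cyp2d22 by 0.35 and Cyp2j6 by 0.37 (liver minus brain, log2). In liver the mean changes were -0.71, 0.40, 0.22 and 0.23, and in brain 0.02, -0.02, -0.13 and -0.14 in the same order. Cyp2j6 passed in neither tissue alone. Cyp2d13 is dim in brain, with values of 2.89 to 3.35.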

How the results depend on the processing

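Of 67 calls over all comparisons of the Cyp2 genes with values by array, 42 passed under every alternative run, 25 were lost under at least 1, and none changed sign. The call of Cyp2j6 for liver minus brain is not among these. The values below are counts of Cyp2 genes past the threshold, and unless a construction shows it (fewer arrays, pooled conditions), the cause of a change was not tested. Shares of all probe sets under each setting are not given beside them, so a changed count is not read as particular to the Cyp2 genes. With the AKR/J controls of doubtful time left out, the counts were 2 instead of 5 for the mean effect of sleep deprivation in liver, 0 instead of 1 in DBA/2J, 5 instead of 12 for AKR/J minus C57BL/6J controls, and 1 instead of 4 for liver minus brain. Without the liver array of raised actin difference, they were 0 instead of 1 in DBA/2J and 1 instead of 0 in AKR/J (Cyp2d13). Averaged over both conditions, DBA/2J minus C57BL/6J called 19 instead of 9 and DBA/2J minus AKR/J 7 instead of 4. For sleep deprivation in AKR/J alone, the filter at the median level and the trended, robust variances each gave 1 (Cyp2d13) instead of 0. In DBA/2J alone, array weights and the fit of 2 groups gave 0 instead of 1, and in C57BL/6J array weights gave 2 (Cyp2b10 and Cyp2u1) instead of 1. In brain, where no gene passed, array weights gave 4 for sleep deprivation, 2 for AKR/J minus C57BL/6J, 1 for DBA/2J minus C57BL/6J and 1 for DBA/2J minus AKR/J; quantile normalisation gave 1 for AKR/J minus C57BL/6J and 1 for DBA/2J minus C57BL/6J; without the 5 doubted brain arrays (narrow spread or raised actin difference) there was 1 for sleep deprivation and 1 for AKR/J minus C57BL/6J; and the mean of probe sets gave 1 for DBA/2J minus AKR/J.

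With each array left out in turn, the counts were 3 to 7 for the mean effect of sleep deprivation, 1 to 2 in C57BL/6J, 0 to 2 in AKR/J, 0 to 1 in DBA/2J, 0 to 0 for the interaction, 9 to 12 for AKR/J minus C57BL/6J, 7 to 11 for DBA/2J minus C57BL/6J and 4 to 5 for DBA/2J minus AKR/J among controls, and 9 to 13, 12 to 15 and 4 to 6 for these pairs after sleep deprivation. They were 2 to 5 for liver minus brain, 0 to 1 for DBA/2J minus AKR/J in brain, and 0 to 0 for the other 3 brain comparisons. Of the 18 liver arrays, 11 when left out cost both Cyp2b10 and Cyp2d22. Of these, 10 left 3 calls: AKR/J control arrays 1, 2 and 3, AKR/J sleep-deprived arrays 1 and 2, C57BL/6J control array 3, C57BL/6J sleep-deprived arrays 2 and 3, and DBA/2J sleep-deprived arrays 1 and 3. The other, DBA/2J control array 1, left 4, with Cyp2j6 gained. In AKR/J the count of 2 (Cyp2c37 and Cyp2c54) came without sleep-deprived array 3.

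Same-numbered arrays were correlated about as much as differently numbered ones. Over 45 pairs of liver groups the deviations of same-numbered arrays had a median correlation of -0.0045, with 5 above 0.1, and in brain 0.105, with 23 above 0.1. Over 90 pairs of differently numbered arrays the median was -0.0089 in liver, with 6 above 0.1, and 0.080 in brain, with 42 above 0.1. With the replicate block the count was the same in 11 of 16 comparisons; it was 4 instead of 5 for the mean effect in liver, 0 instead of 1 in DBA/2J, 10 instead of 9 for DBA/2J minus C57BL/6J controls, and 15 instead of 14 and 5 instead of 6 for DBA/2J against C57BL/6J and AKR/J after sleep deprivation.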
